A study of Homo sapiens with 18 samples.

Results

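The cytosolic ribosomal protein genes encode the protein parts of the ribosomes outside mitochondria. They were taken as the genes whose symbol is RPL or RPS with a number and at most one A or X, together with RPLP0, RPLP1, RPLP2 and RPSA. By this rule 77 of the 23622 genes in the count table were members, 46 of the large subunit (RPL and RPLP) and 31 of the small subunit (RPS and RPSA). All 77 passed the filter on low counts, which kept 15760 genes. RNA-seq was compared between A2780, a human ovarian carcinoma cell line sensitive to cisplatin, and its resistant derivative A2780cis, called Acis. Each line was left untreated (control) or kept for 3 h in 200 µM cisplatin, a platinum drug that crosslinks DNA bases. This gave 4 groups of 3 replicates each, named by line and condition (A2780 control, A2780 cisplatin, Acis control, Acis cisplatin). Acis was also given 1 µM cisplatin every 3 passages during growth, so that its controls had met the drug before. Resistance is represented by 1 line. The study's methods describe wells seeded in triplicate for every condition, and nothing in the labels says that replicates were grown independently. The p-values therefore measure only the spread between these samples.

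A ribosome holds mostly a single copy of each ribosomal protein, and cells make these proteins in balanced amounts. Their messenger RNAs are short and abundant, and most begin with a cytosine followed by a run of pyrimidines, the terminal oligopyrimidine (TOP) motif, through which mTOR signalling sets their translation. Some ribosomal proteins also act outside the ribosome. RPL5, RPL11 and RPL23 can bind MDM2, the ubiquitin ligase that keeps p53 low, when ribosome assembly is disturbed.

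The starts of 8 members described below are printed first, because the pyrimidine-rich start is the sequence feature that this family is best known for. For 62 of the 77 members a RefSeq promoter (GRCh38.p14) was matched by symbol, and the promoter nearest to the start of the canonical transcript was used. Each line holds 40 bases before and 20 bases from the RefSeq start, 5′ to 3′ on the strand of the gene. Capitals mark CTTTC lying between 20 bases before and 15 bases after the start.
RPS27 (chr1:153990722-153990781, + strand): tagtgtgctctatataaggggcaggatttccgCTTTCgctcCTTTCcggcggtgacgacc
RPL10 (chrX:154398337-154398396, + strand): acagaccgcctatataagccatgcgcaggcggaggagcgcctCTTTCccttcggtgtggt
RPL28 (chr19:55385892-55385951, + strand): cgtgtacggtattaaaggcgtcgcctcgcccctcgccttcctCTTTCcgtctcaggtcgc
RPL11 (chr1:23691766-23691825, + strand): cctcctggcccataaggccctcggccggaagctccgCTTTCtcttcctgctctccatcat
RPL21 (chr13:27251518-27251577, + strand): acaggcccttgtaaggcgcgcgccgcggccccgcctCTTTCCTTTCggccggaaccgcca
RPL27A (chr11:8682752-8682811, + strand): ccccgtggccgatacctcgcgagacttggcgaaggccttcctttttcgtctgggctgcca
RPSA (chr3:39406680-39406739, + strand): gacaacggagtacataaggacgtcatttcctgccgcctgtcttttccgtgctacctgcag
RPS7 (chr2:3575220-3575279, + strand): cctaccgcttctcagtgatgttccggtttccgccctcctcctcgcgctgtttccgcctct
The first 5 hold CTTTC in the window, and RPS27 and RPL21 hold it in 2 places. RPL27A, RPSA and RPS7 do not have these letters there, although RPL27A and RPSA begin with a cytosine and a run of pyrimidines at the RefSeq start.

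Over all matched members, CTTTC on the strand of the gene was found in this window in 30 of 62 (48.4%), against 415 of 10368 other tested genes with a promoter (4.0%). CTCTTT, which can overlap CTTTC, was found there in 14 members (22.6%) and in 1.06% of the others. CTTCCGG, a sequence that ETS factors bind, was found on either strand of the whole 300-base promoter in 21 members (33.9%) and in 19.8% of the others. GGGCGG, the core of a GC box, was found on either strand in 56.5% of the members and in 73.5% of the others. TATAAA was found on either strand in 8.06% and 5.22%. For RPS29 the RefSeq start lay 12330 bases from the start of the canonical transcript, so its sequence is not shown.

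All members are protein coding, and they lie on 21 chromosomes, with 12 on chromosome 19. Their genes span 1378 to 80356 bp with a median of 5332 bp, against 24251 bp over all tested genes. Their canonical transcripts have a median of 785 bases, against 2797. They also have pseudogene copies, from 1 for RPLP2 and RPS9 to 133 for RPL21 in the annotation, and reads that match a gene and its copies equally well are not assigned. In members such as RPL17, RPS10 and RPL26 over 50% of the canonical exon bases were shared with another annotated gene on the same strand, where reads are left uncounted. Values of such genes and of members with many copies are therefore less certain.

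Library totals ran from 4130644 to 5072216 counted reads. Of the epithelial markers, EPCAM had 28 counts over all 12 libraries, KRT8 127 and KRT18 1030, while the mesenchymal gene VIM had 22764. KRT18 had a mean of 25.5 normalised counts in A2780 control and 143 in Acis control, while KRT8 had 15.6 and 4.05. CDH1 and the ovarian carcinoma markers PAX8, WT1 and MUC16 had no row in the count table, so their levels are not known here. COL1A1, a collagen gene, had a mean of 844 normalised counts in A2780 control and 16.4 in Acis control. Normalised counts are counts scaled by TMM, a factor per library that sets most genes equal, to the mean library.

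Members took under 1% of the counted reads in every library. Their share was 0.616 to 0.622% in A2780 control and 0.776 to 0.804% in A2780 cisplatin, so that these groups did not overlap, and the ratio of the means was 1.27. In Acis control the share was 0.699 to 0.719% and in Acis cisplatin 0.738 to 0.740%, also without overlap but with a ratio of 1.04. The means ran from A2780 control (0.620% ± 0.00365, SD, n = 3) through Acis control (0.710% ± 0.0103) and Acis cisplatin (0.738% ± 0.000955) to A2780 cisplatin (0.789% ± 0.0144), and no neighbours in this order overlapped. Pseudogenes of the family took 0.0858% in A2780 control and 0.105% in A2780 cisplatin. No test was made on these sums over members. A share also moves with all other genes, and more RNA of the members and less RNA of other genes cannot be told apart.

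**Figure D1:**
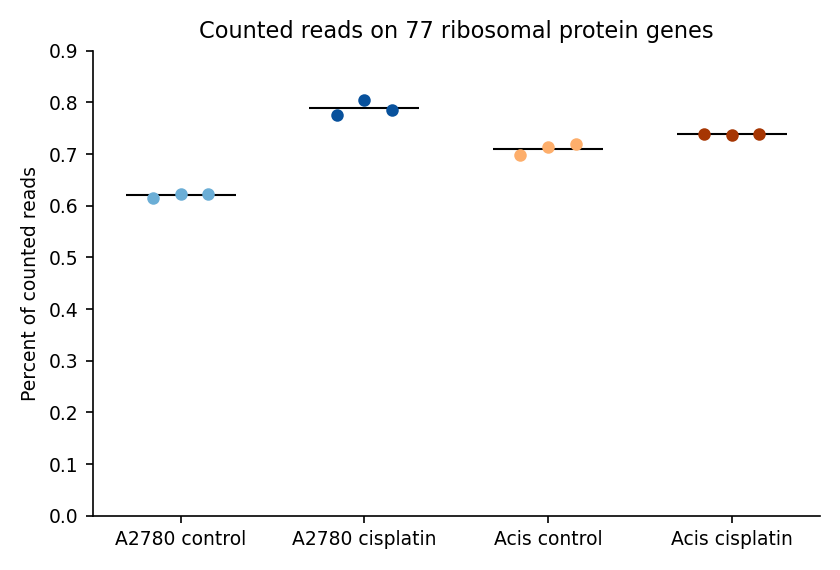
Percent of counted reads that fell on the 77 cytosolic ribosomal protein genes (y axis, from 0) in each of the 12 libraries, by group (x axis). Points are libraries with 95% Wilson intervals, which cover counting error only, and lines are group means, lowest in A2780 control (0.620%) and highest in A2780 cisplatin (0.789%).

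Removal of duplicates limits what these counts can show. The authors removed duplicates from single-end reads, which keeps about 1 read per start position and strand, so a short and abundant transcript cannot give many more counts than it has bases. Counts per base of the canonical transcript, averaged over the 12 libraries, had a median of 0.380 over the members and of 0.0767 over 12133 other tested protein-coding genes. Of the members, 57 (74.0%) lay above the 90th percentile of those genes. RPS29 reached 1.49 and RPS24 1.45 counts per base. The canonical RPS29 transcript has 295 bases, while its raw counts were 285, 265 and 253 in A2780 control and 650, 633 and 609 in A2780 cisplatin. If every duplicate was removed, counts above the number of canonical bases come from others of its 9840 annotated exon bases, and which exons gave them was not tested. In A2780 the cisplatin effect had a median of 0.19 (log2 fold change) over the 38 members with the most counts per base and of 0.23 over the other 39. How far the limit lowered the fold changes was not tested.

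Levels were compared between members per length, as RPKM (reads scaled to the length of all annotated exons and to the library size). The median member had 24.8 RPKM in A2780 control and 28.6 RPKM after cisplatin, and in Acis it had 28.5 RPKM without and 28.5 RPKM with the drug. Members differed far more from each other than between groups, from 5.29 to 84.1 RPKM in A2780 control. Among the highest over all libraries were RPS12 (81.2 RPKM), RPL10A (75.9 RPKM), RPL8 (68.3 RPKM) and RPS21 (60.8 RPKM), and the lowest were RPS10 (6.72 RPKM), RPL36A (6.89 RPKM), RPL39 (7.10 RPKM), RPS15A (7.52 RPKM) and RPS29 (9.65 RPKM). In A2780 control RPS12 (84.1 ± 5.66 RPKM) stood above RPL10A (67.2 ± 0.988 RPKM), and RPL10A above RPL8 (61.5 ± 2.57 RPKM), by more than their spread. The order depends on the length used. All 77 members have more annotated exon bases than canonical ones, and by canonical length RPS29 was the highest member (322 RPKM).

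The first comparison asks how 3 h of cisplatin changed the family in sensitive A2780 cells. Most members rose, and most of them by little. Of 77 members, 57 were higher after cisplatin and 0 were lower at an adjusted p under 0.05, while 21.2% of all tested genes were higher and 28.2% lower (edgeR quasi-likelihood test, Benjamini-Hochberg over 15760 genes). The median log2 fold change was 0.22 over the members and -0.01 over all tested genes, and 74 of 77 values were positive. Members had a median mean count of 402, against 162 over all tested genes, and small changes are called more readily at higher counts. Shares called in members and in all tested genes are therefore not fully alike. The large subunit had 38 of 46 members higher with a median of 0.25, and the small subunit 19 of 31 with a median of 0.18. In 62 members all treated libraries lay above all controls (26.2% of all tested genes), and in 1 member, RPSA, below them (31.1%). A DESeq2 Wald test found 38 members higher and 0 lower.

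RPS29 (chr14:49570984-49599164, GRCh38), a small zinc-binding protein of the small subunit, changed most. It had 266, 255 and 270.0 normalised counts in A2780 control and 609.6, 613 and 598 in A2780 cisplatin. The groups were far apart, with a log2 fold change of 1.20 ± 0.050 (SE; adjusted p = 3.37e-16), a 2.3-fold rise. It was the 1 member whose call came with a log2 fold change of at least 1, a size that 4.14% of all tested genes reached upwards and 1.48% downwards. In the other comparisons 0 members reached that size, against 1.64% of all tested genes upwards and 0.374% downwards for cisplatin in Acis, 6.99% and 12.2% between controls, 7.28% and 11.9% between treated lines, and 0.66% and 0.698% for the difference between the effects. RPS27 (chr1:153990762-153992155), a zinc-finger protein of the small subunit, was next in size. Its counts were low, at 62.5, 70.2 and 60.8 in control and 91.9, 118 and 119 after cisplatin. These groups did not overlap either (log2 fold change 0.76 ± 0.118, adjusted p = 5.98e-06), though the treated libraries spread widely.

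RPL27A (chr11:8682788-8714759) and RPL37, both of the large subunit, had the smallest adjusted p after RPS29. RPL27A rose from 635, 642 and 624 normalised counts to 904, 908 and 916 (log2 fold change 0.52, adjusted p = 1.05e-11). RPL37 rose from 732, 728 and 726 to 1023, 1048 and 999 (0.49, adjusted p = 2.98e-11). In both genes the treated libraries lay well above the controls. RPL32 rose from 397, 399 and 387 to 537, 581 and 583 (0.52, adjusted p = 2.12e-09). RPS15, which takes part in the export of the small subunit from the nucleus, rose from 249, 237 and 251 to 358, 361 and 372 (0.57, adjusted p = 1.45e-08). RPL10, which joins the large subunit late and completes its active site, rose from 260.3, 277 and 245 to 346, 367 and 361 (0.45, adjusted p = 3.48e-07). None of these groups overlapped. RPS23 (log2 fold change 0.47), RPL14 (0.34) and RPLP1 (0.36) completed the 10 members with the smallest adjusted p.

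The 20 members that did not pass the test in A2780 included RPL11 and RPSA. RPSA, also known as a laminin receptor, had 339.6, 366 and 339 normalised counts in control and 331, 335 and 320.2 after cisplatin (log2 fold change -0.08, adjusted p = 0.267). RPL11 had 502, 540.4 and 534 against 510.2, 540.2 and 519 (-0.01, adjusted p = 0.944), and the groups overlapped. RPS4X, encoded on the X chromosome, had 735, 742 and 764 against 734, 757 and 743 (-0.00, adjusted p = 0.952), again with overlap. Others without a call included RPL22, RPL27, RPL29, RPL31, RPL34, RPL37A, RPL9, RPS10, RPS12, RPS15A, RPS24, RPS25, RPS26, RPS3, RPS3A and RPS7.

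Short genes as a class moved in the same direction in A2780. Of 2170 other protein-coding genes spanning 1 to 10 kb, 54.5% were higher after cisplatin and 3.23% lower, with a median log2 fold change of 0.23. The 59 members of that span had 46 higher and a median of 0.22. Among other protein-coding genes of 30 to 100 kb, 5.57% were higher and 46.1% lower (median -0.15). The size of the A2780 change in the members was thus near that of other genes as short, and the part of gene length in it was not tested further.

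**Figure D2:**
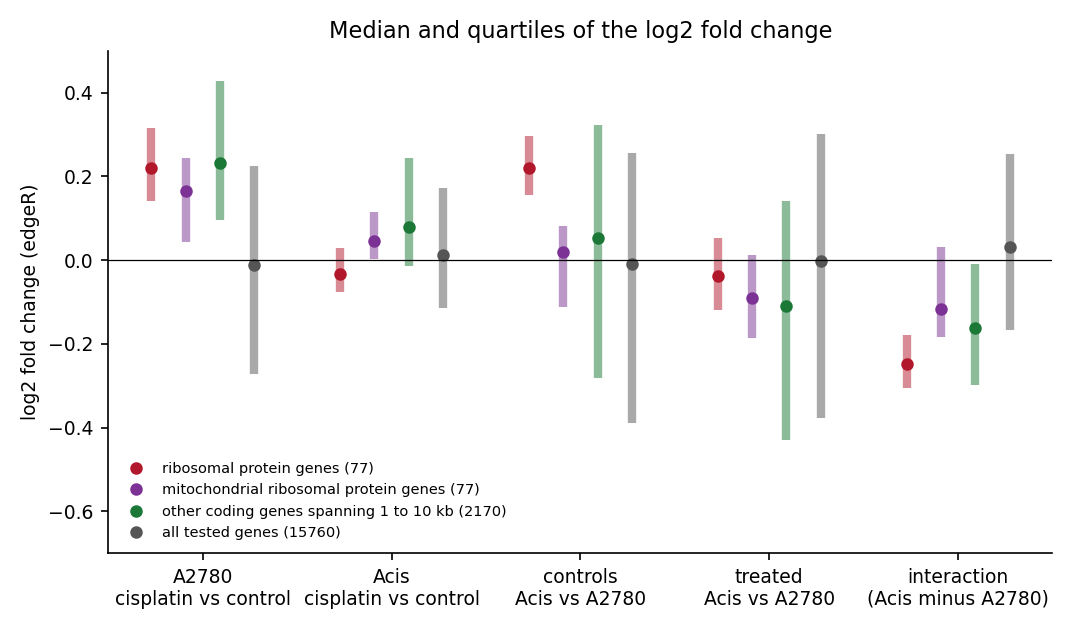
Medians (points) and quartiles (bars) of the log2 fold change (y axis) in the 4 comparisons and for the difference between the effects in the lines (x axis), for the 77 members, the 77 mitochondrial ribosomal protein genes, other protein-coding genes spanning 1 to 10 kb and all tested genes. The members have medians of 0.22 for cisplatin in A2780, -0.03 for cisplatin in Acis, 0.22 between controls, -0.04 between treated lines and -0.25 for the difference of the effects.

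The same treatment was then compared in resistant Acis cells. Few members changed. At an adjusted p under 0.05, 6 members were higher and 2 lower, while 9.35% of all tested genes were higher and 12.4% lower. The median log2 fold change was -0.03 over the members and 0.01 over all tested genes, and 27 of 77 values were positive. Scaled to total counts, as the shares of counted reads are, these medians were 0.02 and 0.07. All treated libraries lay above all controls in 10 members (16.9% of all tested genes) and below them in 15 (17.4%). Other protein-coding genes of 1 to 10 kb had 16.6% higher, 1.98% lower and a median of 0.08, while the 59 members of that span had 2 higher, 2 lower and a median of -0.03.

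RPS29 again changed most, from 324, 322 and 344 normalised counts in Acis control to 536, 534 and 544 in Acis cisplatin. The groups were clearly apart (log2 fold change 0.71 ± 0.050, adjusted p = 6.5e-11). RPL27A rose from 729, 737 and 752 to 899, 890.0 and 879 (0.27, adjusted p = 5.11e-06). RPL37 rose from 825, 820.0 and 871 to 1003, 991 and 992 (0.25, adjusted p = 1.41e-05). RPL14 (log2 fold change 0.19) and RPS23 (0.17) also rose. These 5 were the members higher after cisplatin in both lines.

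RPS24, a small-subunit protein whose messenger RNA has several spliced forms, was the sixth and passed the test in Acis but not in A2780. It had 728, 714 and 753 normalised counts in Acis control and 857, 844 and 858 in Acis cisplatin (log2 fold change 0.22, adjusted p = 0.000194). In A2780 it had 711, 772 and 715 against 764, 776 and 773 (0.07, adjusted p = 0.142), with overlap. The difference between the lines, 0.15, did not pass the test (adjusted p = 0.0746). RPL3 and RPL11 were the 2 lower members in Acis. RPL3 (chr22:39312882-39320389), a core protein near the peptidyl transferase centre, fell from 942, 923 and 931 to 855, 870.3 and 859.5 (log2 fold change -0.11, adjusted p = 0.0322). RPL11 (chr1:23691742-23696835) fell from 570.0, 612 and 606 to 535, 541 and 551 (-0.14, adjusted p = 0.037). Both changes were small and neither pair of groups overlapped. In a DESeq2 Wald test 4 members were higher and 0 lower, so the calls of RPL3 and RPL11 were lost. Neither was called without Acis cisplatin replicate 1, Acis cisplatin replicate 2 or Acis control replicate 3.

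The difference between the effects in the lines was tested itself, as the interaction of line and cisplatin. It was more negative in Acis for 44 of 77 members and more positive for 0, while 5.48% of all tested genes were more negative and 13.4% more positive. The median was -0.25 on the log2 scale over the members and 0.03 over all tested genes, and RPS24 was the 1 member above 0. The changes of single libraries did not overlap between the lines in 68 members that were more negative in Acis (21.2% of all tested genes) and in 1 that was more positive (28.9%). Each change was a treated library against the mean of its line's controls, so the spread of the controls does not enter these counts. A DESeq2 Wald test found 22 members more negative and 0 more positive. Other protein-coding genes of 1 to 10 kb had 17.5% more negative and a median of -0.16, against 34 of 59 members of that span and a median of -0.25. RPS29 (-0.50 ± 0.073, adjusted p = 2.36e-05), RPL32 (-0.49, adjusted p = 2.38e-05), RPL3 (-0.35, adjusted p = 4.25e-05), RPL10 (-0.52, adjusted p = 4.65e-05) and RPL28 (-0.39, adjusted p = 7e-05) had the smallest adjusted p. RPS27 had the largest difference (-0.95 ± 0.165, adjusted p = 0.000182), made up mostly of its rise of 0.76 in A2780. In Acis it had 94.5 to 112 normalised counts in control and 85.5 to 92.1 after cisplatin, which was not called (log2 fold change -0.19, adjusted p = 0.297). Across the 77 members the effects in A2780 and Acis, which share no samples, had a Spearman correlation of 0.312 (0.285 over 76 without RPS29), given as a description.

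**Figure D3:**
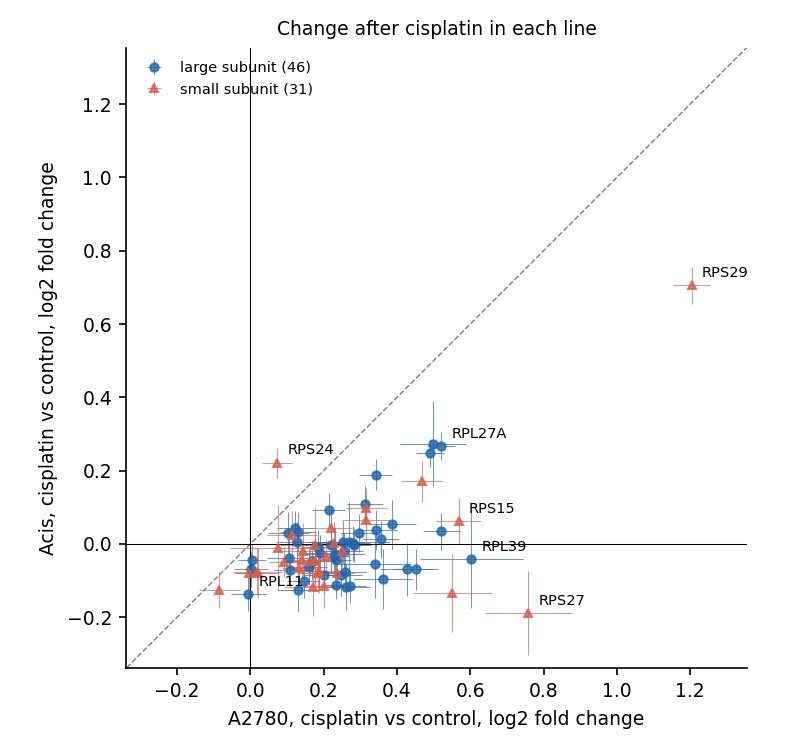
Log2 fold change after cisplatin in A2780 (x axis) and in Acis (y axis), one point per member with bars of 1 SE, large subunit as circles, small subunit as triangles, and a dashed line of equal effects. RPS29 lies far to the upper right (1.20 and 0.71), and all members but RPS24 lie below the line.

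Untreated cells of the lines were compared next. Most members were higher in Acis. Of 77 members, 60 were higher in Acis control than in A2780 control and 3 were lower, while 28.2% of all tested genes were higher and 30.6% lower. The same A2780 control libraries enter the effect of cisplatin in A2780 and the interaction. The counts of calls in these comparisons are therefore not independent of each other. The median log2 fold change was 0.22 over the members and -0.01 over all tested genes. The large subunit had 36 of 46 higher and the small subunit 24 of 31. All Acis libraries lay above all A2780 libraries in 63 members (30.9% of all tested genes) and below them in 4 (33.3%). Other protein-coding genes of 1 to 10 kb had 34.9% higher, 25.6% lower and a median of 0.05, while the 59 members of that span had 47 higher, 3 lower and a median of 0.23.

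RPSA (chr3:39406716-39426255) had 339.6, 366 and 339 normalised counts in A2780 control and 474, 488 and 511 in Acis control. The lines were far apart (log2 fold change 0.49, adjusted p = 4.52e-09). RPL10 (chrX:154389955-154409168) had 364, 375 and 375 in Acis control against its 260.3, 277 and 245 in A2780 control (0.51, adjusted p = 3.16e-08), and the lines did not overlap. RPL30 (0.48), RPL7 (0.57), RPL8 (0.28) and RPS20 (0.36), the 4 members on chromosome 8, were all higher in Acis control. Of the 553 other tested genes on chromosome 8, 44.1% were higher, with a median of 0.19. Among tested genes within 1 Mb, 35 of 53 were higher around RPL8 and 7 of 13 around RPL30, but 2 of 11 around RPL7. RPL6, RPL12 and RPLP0 were also among the 10 with the smallest adjusted p, at log2 fold changes of 0.37, 0.34 and 0.27.

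RPS7, RPL21 and RPL5 were lower in Acis. RPS7 (chr2:3575260-3580920), which can also bind MDM2, had 297, 323 and 306 normalised counts in A2780 control and 214, 227 and 226 in Acis control (log2 fold change -0.47, adjusted p = 2.71e-07). RPL21 (chr13:27251362-27256691) had 116, 106 and 106 against 72.2, 80.9 and 75.2 (-0.52, adjusted p = 0.00022). RPL5 (chr1:92832013-92841924) had 563, 561 and 559 against 482, 527 and 469.6 (-0.19, adjusted p = 0.00389). In none of the 3 did the lines overlap, and their neighbours were low as well. Of the tested genes within 1 Mb, 7 of 7 were lower around RPS7 (median log2 fold change -0.83), 9 of 11 around RPL21 (-0.81) and 13 of 14 around RPL5 (-1.08). Over the 269 other tested genes on chromosome 13, 76.6% were lower (median -0.73). DNA copy number was not analysed here, and its part in these values was not tested. In all, 9 members had most of their neighbours lower, and 6 of these, RPL14, RPL27A, RPL37A, RPL9, RPS12 and RPS23, were not called lower. The neighbour medians of these 6 ran from -0.20 around RPL27A to -0.76 around RPS23. Over the 75 members with at least 5 tested neighbours, the Spearman correlation between the value of a member and the median of its neighbours was 0.352, given as a description.

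**Figure D4:**
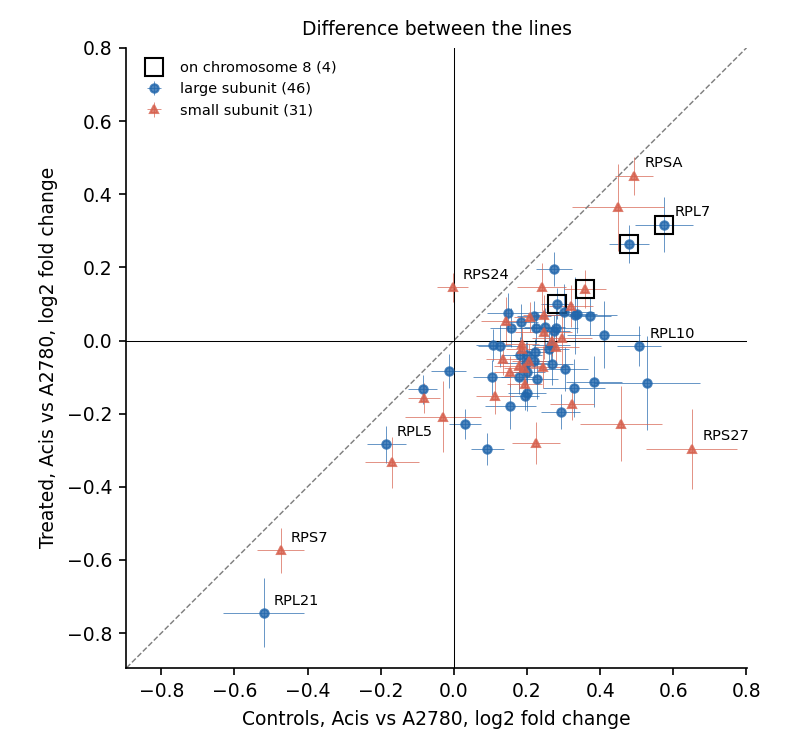
Log2 fold change of Acis against A2780 in control cells (x axis) and in cisplatin-treated cells (y axis), one point per member with bars of 1 SE, and squares around the 4 members on chromosome 8. RPSA lies high on both axes (0.49 and 0.45), RPS7 (-0.47 and -0.57) and RPL21 (-0.52 and -0.75) lie low on both, and most of the rest lie to the right of 0 on the x axis and near 0 on the y axis.

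After cisplatin the lines differed in fewer members. In Acis cisplatin, 8 members were higher and 17 lower than in A2780 cisplatin, while 31.8% of all tested genes were higher and 31.2% lower. The median log2 fold change was -0.04 over the members and -0.00 over all tested genes. Libraries of the lines did not overlap in 14 members that were higher (33.4% of all tested genes) and in 25 that were lower (33.3%). Both shares are near or below those of all tested genes. Other protein-coding genes of 1 to 10 kb had 22.4% higher, 41.7% lower and a median of -0.11, while the 59 members of that span had 4 higher and 12 lower.

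Members with line differences in both conditions were RPSA, RPL30, RPL22, RPL7, RPS10, RPS20 and RPL8, which were higher in Acis each time, and RPS7, RPL21 and RPL5, which were lower each time. RPSA had 331, 335 and 320.2 normalised counts in A2780 cisplatin and 453, 445 and 449.9 in Acis cisplatin (log2 fold change 0.45, adjusted p = 2.42e-08). RPS7 had 308, 320.5 and 311 against 201, 217 and 214 (-0.57, adjusted p = 5.72e-09). In both genes the lines were far apart, and their interaction values of -0.04 and -0.10 did not pass the test (adjusted p = 0.798 and 0.569). RPL21 had 147, 172 and 143 against 96.9, 91.6 and 87.4 (-0.75, adjusted p = 1.06e-07). RPL28 was called lower in Acis after cisplatin and not between controls, at 753, 755 and 764 against 622, 588 and 639 (-0.30, adjusted p = 9.3e-07), and its interaction passed the test. In all, 7 members, RPS15 (-0.28), RPL32 (-0.19), RPL3 (-0.15), RPS29 (-0.17), RPLP1 (-0.14), RPS27 (-0.30) and RPS9 (-0.12), were higher in Acis control and lower in Acis cisplatin than in A2780 under the same condition. RPL13 (-0.23) and RPS12 (-0.33) were also lower after cisplatin. Between treated lines, 12 of the 75 members with at least 5 tested genes within 1 Mb had most of these neighbours lower. Around RPL28 24 of 45 were lower (median -0.26) and around RPS12 5 of 7 (-0.62), but around RPL13 12 of 39 (0.11).

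**Figure D5:**
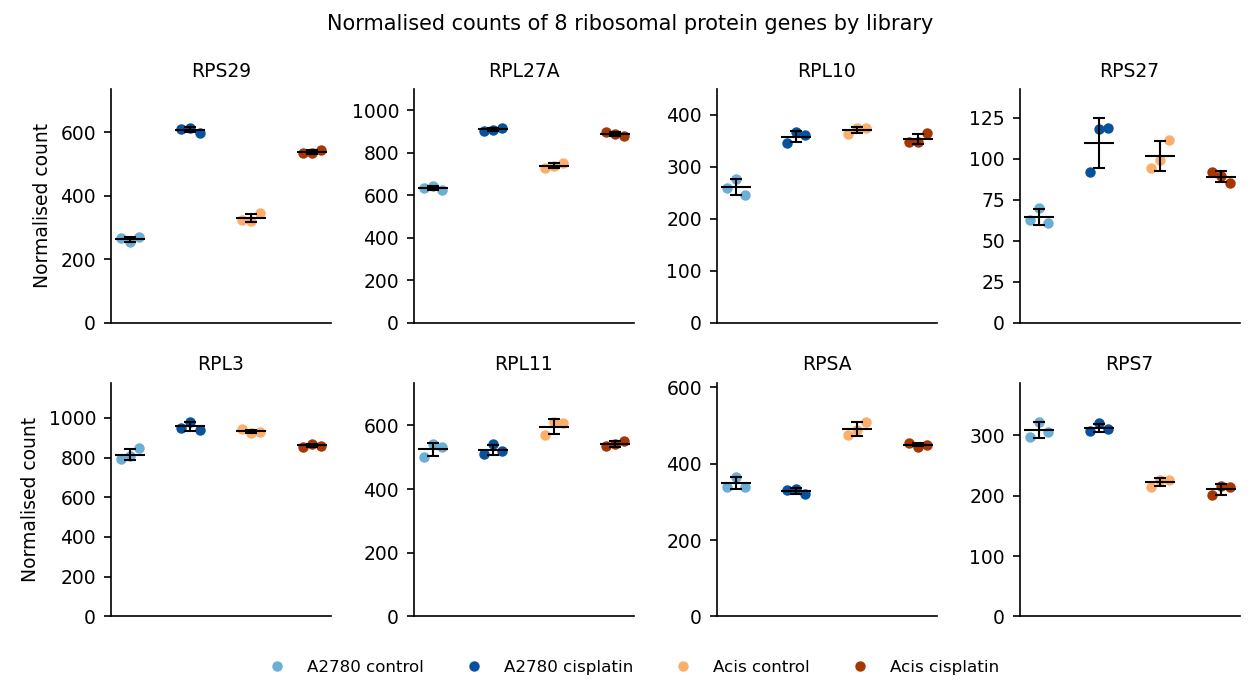
Normalised counts (y axes, from 0) of 8 members in the 12 libraries, coloured by group, with the mean and SD of each group in black. RPS29 and RPL27A are higher after cisplatin in both lines, RPL10 and RPS27 are lowest in A2780 control, and RPSA and RPS7 differ between the lines in both conditions.

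Members chosen by their role differed from each other. Of the MDM2-binding proteins, RPL5 rose slightly in A2780 (log2 fold change 0.13, adjusted p = 0.0309), RPL11 gave no call there, and RPL23 rose from 508, 490.4 and 493 to 611, 643 and 599 normalised counts (0.31, adjusted p = 6.81e-06). In Acis the values after cisplatin were 0.03 for RPL5, -0.14 for RPL11 and 0.11 for RPL23, of which RPL11 passed the test. Between untreated lines RPL5 was lower in Acis and RPL11 higher (0.18, adjusted p = 0.00159), so that these members did not move as a group. The stalk proteins RPLP0, RPLP1 and RPLP2, which recruit translation factors to the ribosome, all rose in A2780, by 0.15, 0.36 and 0.17 on the log2 scale, and none was called in Acis. RPS6, the substrate of S6 kinase, rose from 606, 599 and 621 to 670, 685 and 690 normalised counts in A2780 (0.16, adjusted p = 0.00219).

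RPS27A, made as a fusion with ubiquitin, rose in A2780 (log2 fold change 0.23, adjusted p = 0.00525) and was higher in Acis control (0.32, adjusted p = 5.15e-05). RPS19, the gene most often mutated in Diamond-Blackfan anaemia, rose in A2780 (0.21, adjusted p = 0.000237) and gave -0.03 in Acis. RPS3, which also has a role in DNA repair, gave 0.09 in A2780 (adjusted p = 0.0646) and was higher in Acis control (0.21, adjusted p = 0.000106). RPL22 gave 0.12 in A2780 (adjusted p = 0.054) and was higher in Acis in both conditions, at 0.27 and 0.20. RPL41, the shortest ribosomal protein, rose from 132, 119 and 129 to 161, 173 and 155 normalised counts in A2780 (0.36, adjusted p = 0.000679), and gave -0.10 in Acis. Its interaction passed the test (-0.46, adjusted p = 0.00812).

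Members with and without the letters CTTTC near the start had close counts of calls. These letters do not define the TOP motif, since RPL27A and RPSA lack them and still begin with a cytosine and a run of pyrimidines. The split therefore does not separate members with and without a TOP motif. In A2780, 21 of 30 members with CTTTC and 23 of 32 without it were higher after cisplatin, with median log2 fold changes of 0.24 and 0.21. The interaction was more negative in 17 of 30 and 18 of 32. No test of this difference was made. Among the printed starts, RPS27 and RPL10 with CTTTC and RPL27A without these letters all rose in A2780.

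Open chromatin was measured by ATAC-seq, in which a transposase cuts accessible DNA, and the authors merged the replicates of a condition into 1 list of peaks. The lists used here hold no value per replicate, so no test was made. A peak covered the start of the canonical transcript in 75 of 77 members in untreated A2780 (97.4%) and 77 in treated A2780 (100.0%), and in Acis in 75 without the drug (97.4%) and 76 with it (98.7%). Over 12120 other tested protein-coding genes the shares were 69.5%, 63.8%, 63.6% and 63.7%. Members had a median mean count of 402, against 162 over all tested genes, and peaks were not compared between genes of like counts. In 74 members a peak stood at the start in all 4 lists, and no member lacked one in every list. Median fold enrichment over local background was 14.9, 13.1, 17.3 and 17.2 at the members in the same order of conditions, and 15.8, 13.0, 18.0 and 17.1 at the other genes. Enrichment was higher after cisplatin in 16 of these 74 members in A2780 (21.6%) and in 28 in Acis (37.8%), against 8.48% and 41.4% of 6877 other genes with a peak in all lists. It was higher in Acis control than in A2780 control in 71 members (95.9%) and in 81.3% of the other genes. The median ratios were 0.846, 0.983 and 1.147 at the members and 0.834, 0.978 and 1.107 at the other genes, so the direction was shared. The lists differ in how many peaks they hold, from 24485 in Acis control to 34979 in A2780 control, so these ratios are given as descriptions.

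Related gene lists were read beside the members. FAU, which encodes a ribosomal protein fused to a ubiquitin-like protein, had 206 ± 3.65, 257 ± 6.21, 235 ± 13.7 and 232 ± 1.75 normalised counts (SD, n = 3) in the controls and treated cells of A2780 and then of Acis. It rose in A2780 by 0.32 on the log2 scale (adjusted p = 0.000165) and was not called in Acis. Of the 6 tested paralogs, second copies of ribosomal protein genes, RPS27L stood out. RPS27L, a known target of p53, had 226 ± 10.8, 396 ± 18.8, 156 ± 5.76 and 232 ± 21.3 normalised counts in the same order. It rose in A2780 (log2 fold change 0.81, adjusted p = 5.73e-11) and in Acis (0.57, adjusted p = 7.48e-06), was lower in Acis in both conditions (-0.53 and -0.77), and its interaction did not pass the test (-0.24, adjusted p = 0.122).

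The shares of all tested genes given above, 21.2% higher and 28.2% lower for cisplatin in A2780, 9.35% and 12.4% in Acis, and 28.2% and 30.6% between controls, apply to these lists too. Of 19 tested translation factors and other genes with TOP messenger RNAs, 7 were higher (36.8%) and 4 lower (21.1%) after cisplatin in A2780, TPT1 (log2 fold change 0.18) and EEF1A1 (0.18) among the higher and HNRNPA1 (-0.20) and NAP1L1 (-0.21) among the lower. In Acis 0 were higher and 4 lower (21.1%), with EEF2, the elongation factor that moves the ribosome along, at -0.15. Between untreated lines 12 were higher in Acis (63.2%) and 3 lower (15.8%), with EEF1D at 0.61. Of 45 genes of ribosome assembly, 18 were higher (40%) and 8 lower (17.8%) in A2780 after cisplatin, NOP56 (0.30) and POLR1C (0.40) rising and UTP20 (-0.44) and HEATR1 (-0.30) falling. In Acis 2 were higher (4.44%) and 8 lower (17.8%), and between untreated lines 26 were higher in Acis (57.8%) and 2 lower (4.44%), BOP1 (0.67) and MYBBP1A (0.47) among the higher.

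The 77 mitochondrial ribosomal protein genes, which serve the separate ribosomes of mitochondria, are a list of the same size. In A2780, 37 were higher (48.1%) and 7 lower (9.09%) after cisplatin, with a median log2 fold change of 0.16, against 57, 0 and 0.22 for the cytosolic genes. MRPL49 (0.41) and MRPL55 (0.41) were among the higher and MRPL42 (-0.38) among the lower. In Acis 5 were higher (6.49%) and 0 lower. Between untreated lines the lists differed in their counts, with 12 mitochondrial genes higher in Acis (15.6%) and 11 lower (14.3%, median 0.02), against 60 and 3. MRPS31 was the mitochondrial gene with the smallest adjusted p among the lower ones (-1.35). Of the pseudogenes of the cytosolic family, 95 of 342 in the table were tested, of which 12 were higher (12.6%) and 4 lower (4.21%) in A2780, both below the shares of all tested genes. Their counts were low, with a median mean count of 22.4 against 162 over all tested genes. Still, 81 of the 95 values were positive and 14 negative, with a median log2 fold change of 0.15. The part of low counts in the few calls was not tested.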

How the data were processed

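RNA-seq counts per gene were deposited by the authors as raw counts. Per the labels and the study's methods, single-end reads of ribosomal RNA-depleted stranded libraries were aligned with STAR 2.7.3 to hg38, duplicates were removed with Picard, and reads were counted with HTSeq 0.11.1 in reverse-strand mode. Rows with under 10 counts over the 12 libraries are absent. Total counts were 4130644 to 5072216 per library, and intervals cover counting error only. The authors' ATAC-seq peak lists (MACS2) give, per condition, the ratio (fold enrichment), −log10 p and q and an integer score, for peaks shared between replicates. The authors' deposited score and −log10 p were not used. XR-seq was not analysed here.

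Counts were normalised by TMM, filtered with filterByExpr and fitted with edgeR 4.0.16 (quasi-likelihood test, 4 groups, R 4.3.3), with Benjamini-Hochberg adjustment over 15760 genes and a threshold of 0.05. DESeq2 1.42.0 was an alternative. The fit was tested on simulated data. Positions and lengths came from GENCODE 44 (GRCh38), and 23513 of 23622 identifiers matched. Peaks were matched to the start of the canonical transcript. With the outermost start instead, 69 members had a peak in untreated and 72 in treated A2780, and 67 and 69 in Acis.

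The members and the other gene lists were chosen with earlier results of these data known. Named were, per comparison, up to 10 called members in each direction whose groups did not overlap, by smallest adjusted p (5 for the interaction), the 5 highest and 5 lowest by RPKM, members chosen by role, and up to 3 called genes in each direction from the other lists. RPS27 and RPS24 values outside this rule, and the genes named for their chromosome or as not called, were chosen after their values were seen. Some replicates differed by less than counting noise, with ratios of 0.73 to 1.53, and were kept apart. Summing the closest pair was an alternative in every group but A2780 control. That group had ratios of 0.73, 0.77 and 0.82, so this alternative does not address its replicates. Other alternatives were the normalisation, the filter, the groups in the fit, the replicate number as a block, lengths, peak thresholds and leaving out each library. Results of some genes that the rules name are not reported here.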

Additional observations from a re-analysis of the deposited data

Results flagged for a closer look

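The effect of cisplatin differed between A2780 and Acis, by the test of the interaction, in 44 of the 77 members. Among named members the difference (Acis minus A2780, log2) was -0.50 for RPS29, -0.49 for RPL32, -0.35 for RPL3, -0.52 for RPL10, -0.39 for RPL28, -0.20 for RPL23, -0.25 for RPLP0, -0.35 for RPLP1, -0.21 for RPS6, -0.24 for RPS19 and -0.46 for RPL41. In the related lists it was -0.34 for FAU, 0.24 for NAP1L1, -0.20 for EEF2, -0.18 for RACK1 and -0.19 for TPT1. Among genes of ribosome assembly it was 0.25 for UTP20, 0.20 for HEATR1, 0.15 for POLR1B, -0.25 for NOP56, -0.26 for NOB1 and -0.20 for MYBBP1A. Among mitochondrial ribosomal protein genes it was 0.54 for MRPL42, 0.40 for MRPS6, 0.31 for MRPL30, -0.31 for MRPL49, -0.27 for MRPS2 and -0.36 for MRPL55. Groups of 3 are too small for a check of single far samples.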

How the results depend on the processing

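Scaling to total counts moved the median log2 fold change of all genes to 0.10 in A2780 and 0.07 in Acis, and gave 72 members higher and 0 lower in A2780, 8 and 0 in Acis, 61 and 3 between controls, 6 and 29 between treated lines, and 0 and 56 in the interaction. A DESeq2 Wald test gave 38 and 0, 4 and 0, 50 and 3, 4 and 12, and 0 and 22. The 2 members lower in Acis became 4 with DESeq2 size factors, 0 with the closest replicates summed and 1 with only the compared groups in the fit. The 17 lower between treated lines became 27 with at least 50 counts on average. With a log2 fold change of at least 1 required, 1 member stayed called in A2780 and 0 in every other comparison and direction. Counting pseudogenes gave shares of 0.706, 0.894, 0.802 and 0.835% (A2780 control, A2780 cisplatin, Acis control, Acis cisplatin), and leaving out mitochondrially encoded genes gave 0.740% for Acis cisplatin. The median RPKM in the same order was 40.6, 45.0, 46.2 and 45.8 by longest transcript and 78.7, 86.2, 89.8 and 89.9 by canonical transcript, and the median density was 0.380 per canonical base (canonical length was chosen after seeing the data). Causes were not tested.

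Leaving out 1 library at a time gave 49 to 59 members higher and 0 to 0 lower in A2780, 5 to 6 and 0 to 2 in Acis, 54 to 61 and 3 to 6 between controls, 6 to 8 and 14 to 20 between treated lines, and 0 to 1 and 33 to 42 in the interaction. The lower calls in Acis were 0 without Acis cisplatin replicate 1 or 2 or Acis control replicate 3, and 1 without Acis control replicate 1, and without Acis control replicate 3 the lower calls between controls were 6 and the positive interaction calls 1. Shares were 0.619 to 0.622, 0.781 to 0.795, 0.706 to 0.716 and 0.738 to 0.739%, and median RPKM 24.5 to 25.2, 28.3 to 28.8, 28.1 to 28.8 and 28.4 to 28.7. Deviations of same-numbered libraries from their group means had correlations of -0.176 to 0.245. Differently numbered libraries were not compared, so these values cannot settle whether the numbers pair libraries. With the replicate block the counts were 56 and 0, 6 and 2, 61 and 3, 8 and 17, and 0 and 43.

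Values near 0 changed sign as follows, and of these EIF4B alone had been called. With total counts, A2780 values were 0.012 for EIF4B, 0.11 for RPL11, 0.11 for RPS4X and 0.030 for RPSA, Acis values 0.0078 for RPLP2, 0.020 for RPS19, 0.0030 for RPS3 and 0.0071 for RPS6, and values between treated lines -0.00138 for RPL11, -0.028 for RPLP0 and -0.017 for RPLP2. With at least 50 counts they were 0.054 for RPL11 and 0.055 for RPS4X in A2780, and -0.024 for RPLP0 and -0.013 for RPLP2 between treated lines. With the compared groups alone, RPL11 gave 0.021 and RPS4X 0.022 in A2780, and TMM without the family gave 0.000602 for RPS4X. In Acis RPLP1 gave -0.014 with DESeq2 and -0.0051 with its size factors, and RPS27A -0.025, -0.016, -0.00496 with replicates summed and -0.0089 without the filter. Leaving out 1 library gave, in A2780, -0.044 to 0.011 for RPL11 and -0.021 to 0.0045 for RPS4X, in Acis, -0.0032 to 0.077 for RPL5, -0.024 to 0.033 for RPLP1 and -0.022 to 0.017 for RPS27A, and between treated lines, -0.0057 to 0.070 for RPLP2 and -0.036 to 0.0012 for RPS6.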
